A study of Mus musculus with 18 samples.

Results

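The 10 genes described here encode proteins that coat lipid droplets or act on the fat within them. They were chosen by name, with earlier results of these data known. The members are the CIDE genes Cidea, Cideb and Cidec, the perilipins Plin2, Plin3, Plin4 and Plin5, the lipase genes Pnpla2 and Pnpla3, and G0s2. They are 10 of the 25266 genes listed for each mouse, and each had a mean above 0.5 RPKM over all mice and was therefore among the 11090 genes tested. RPKM is the number of reads of a gene per kilobase of transcript and per M reads (M, mega).

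RNA from whole liver of 18 male mice on a C57BL/6 background was sequenced. FF mice (ppp6r3 fl/fl, 4 on CD and 5 on HFD) carry floxed copies of Ppp6r3, the gene of SAPS3, a regulatory subunit of protein phosphatase 6. LKO mice (4 on CD and 5 on HFD) are FF mice that also carry Alb-Cre, in which the albumin promoter drives the recombinase in hepatocytes. Liver cells in which that promoter was never active keep the floxed gene. No mouse had Cre without the floxed alleles, so the deletion and the presence of Cre cannot be told apart. The control diet (CD) held 10 kcal% fat and the high fat diet (HFD) 32.5 kcal% fat, and each was given for 16 weeks from 8 weeks of age.

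A lipid droplet is a core of triglyceride and cholesteryl ester under a single layer of phospholipid and proteins. Perilipins sit on that surface and govern the access of lipases, CIDE proteins pass lipid from smaller to larger droplets, and the lipase ATGL (Pnpla2) takes the first fatty acid from triglyceride. In hepatocytes droplets grow when fat supply exceeds oxidation and secretion, which is known as steatosis. Cidea, Cidec and Plin4 are best known from adipocytes, whereas Plin2, Plin5 and Cideb are the usual forms in hepatocytes.

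Each mouse was covered by 23.4 to 37.0 M reads, as recovered from the steps between low values, with group medians of 24.8 to 27.1 M reads. Ppp6r3 was at 8.38 to 10.98 RPKM in FF CD mice against 3.88 to 4.08 in LKO CD mice. It was at 7.55 to 8.82 in FF HFD mice against 4.22 to 4.87 in LKO HFD mice. Each library thus matched the genotype of its label, which does not check the diet. All 7 hepatocyte markers were detected in every group, with Alb (albumin) at 21308 to 36965 RPKM. In whole liver, fewer cells of a type and less RNA per cell cannot be told apart.

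Coordinates are given for GRCm38 (mm10) with the GENCODE annotation. Cidec lies at chr6:113424634-113435760 on the minus strand, Plin2 at chr4:86648386-86670060 on the minus strand and Plin3 at chr17:56277476-56292873 on the minus strand. Plin4 at chr17:56100591-56109803 and Plin5 at chr17:56111601-56117596 are direct neighbours on the minus strand. Cideb (chr14:55754050-55758458, minus strand), Pnpla2 (chr7:141455198-141460743, plus strand), Pnpla3 (chr15:84167837-84187236, plus strand) and G0s2 (chr1:193272161-193273217, minus strand) complete the set with coordinates printed here. All of these are protein-coding. Cideb overlaps the end of Nop9, Plin4 the last bases of Hdgfl2 and G0s2 lies inside the span of Lamb3, in each case on the opposite strand, and the use of strand in counting is not given in the sources used here, so reads in those stretches cannot be assigned to either gene. Pnpla3 shares parts of its span with a microRNA gene and predicted genes.

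Cidec and Plin4 are the members whose response to HFD differed between the genotypes, as described below, and the 250 bases before their RefSeq transcription starts (GRCm38.p6, 5′ to 3′ in the direction of transcription) are shown for that reason. Cidec has a distal start, preceded by chr6:113435761-113436010, and a proximal start, preceded by chr6:113434765-113435014, which lies between alternative first exons. The Plin4 window is chr17:56109783-56110032. Capitals mark matches to the motifs searched.
Cidec, distal start: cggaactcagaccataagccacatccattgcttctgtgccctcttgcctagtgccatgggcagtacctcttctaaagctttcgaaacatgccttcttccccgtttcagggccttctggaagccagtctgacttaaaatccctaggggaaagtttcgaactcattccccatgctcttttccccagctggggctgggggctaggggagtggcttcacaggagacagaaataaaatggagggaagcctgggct
Cidec, proximal start: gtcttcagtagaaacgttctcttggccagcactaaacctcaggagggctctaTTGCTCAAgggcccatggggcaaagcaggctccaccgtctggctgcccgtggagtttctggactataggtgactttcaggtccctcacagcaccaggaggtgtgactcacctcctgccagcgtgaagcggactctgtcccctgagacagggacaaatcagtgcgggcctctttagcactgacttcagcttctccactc
Plin4: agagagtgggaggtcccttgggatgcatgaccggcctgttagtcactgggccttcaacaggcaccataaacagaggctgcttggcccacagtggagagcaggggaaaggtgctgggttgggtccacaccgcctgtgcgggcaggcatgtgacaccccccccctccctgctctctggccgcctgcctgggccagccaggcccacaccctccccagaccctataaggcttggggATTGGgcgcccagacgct

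The motifs searched on both strands were the spaced repeat bound by PPAR and RXR (2 copies of AGGNCA with 1 base between them, in 0.338% of 32851 promoter windows of the same length), its core AGGTCA (14.02%), the E-box CACGTG (6.02%), the sterol response element TCACNCCAC (1.05%), the C/EBP motif TTGCNNAA (9.56%), TATAAA (12.4%) and CCAAT (33.8%). AGGTCA is part of some matches to the spaced repeat. The proximal Cidec window held TTGCTCAA, 198 to 191 bases before the start, and the distal window held no match. The Plin4 window held CCAAT on the minus strand, 18 to 14 bases before the start. Among the other members with a window, AGGTCA was found before Plin2 and Plin5, TATAAA before Cideb, and CCAAT before Plin2, Plin3, Plin5 and Pnpla3. The spaced repeat, the E-box and the sterol element were in none of these windows, which says only that those letters are not in these 250 bases.

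The effect of HFD was first measured in FF mice. Of the 10 genes, 7 rose, 1 fell and 2 did not pass, where passing means an adjusted p under 0.05 and a fold change above 1.5 (limma, Benjamini-Hochberg over all genes tested). Across all genes tested 6.60% were called in this comparison, 5.11% higher and 1.49% lower. For 9 of the 10 members the 5 HFD mice did not overlap the 4 CD mice, against 18.3% of all genes. Since the members were chosen with earlier results of these data known, these counts describe the list and do not test it. The median log2 fold change of the CIDE genes was 2.66, that of the perilipins 1.38 and that of the lipases with G0s2 0.49, beside 0.07 for all genes.

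**Figure D1:**
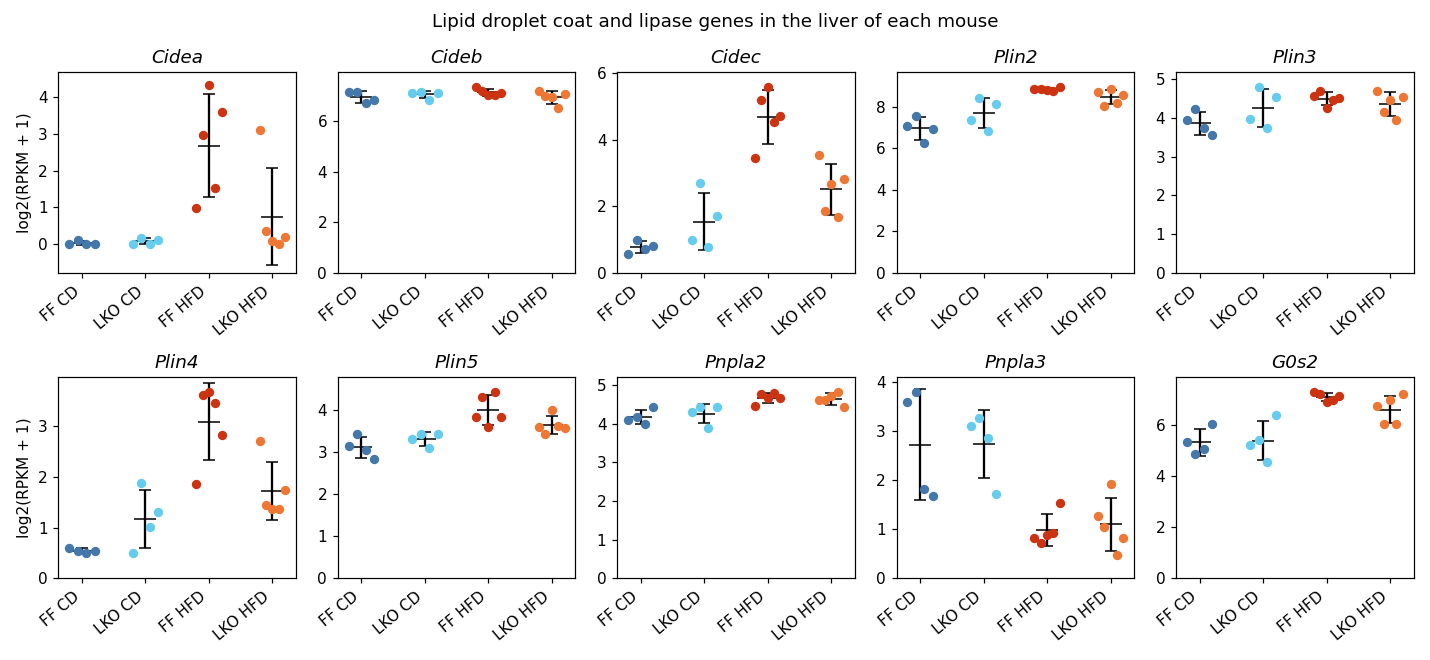
Expression of the 10 genes in each mouse, as log2(RPKM + 1) on the vertical axis with a panel per gene and a separate scale per panel, by group on the horizontal axis. Points are mice, horizontal bars are group means and error bars are SD (n = 4 on CD and n = 5 on HFD). In the Cidec panel the FF HFD mice sit above every CD mouse, and 4 of 5 LKO HFD mice lie below all FF HFD mice.

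Cidec, which encodes a protein that fuses droplets into larger ones, showed the greatest change of the set on the log2(RPKM + 1) scale. It stood at 0.479, 1.001, 0.633 and 0.764 RPKM in the 4 FF CD mice. On HFD the FF mice had 10.1, 35.8, 47.5, 22.2 and 25.1 RPKM. Every HFD mouse lay above all CD mice, and mouse 1 was the lowest of its group. The log2 fold change was 3.93 ± 0.43 (SE, adjusted p = 9.94e-06), and the mean rose 39.1-fold on the RPKM scale. The counts behind these values were 26 to 44 reads per FF CD mouse and 652 to 2186 per FF HFD mouse, which leaves ample depth.

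Cidea, a CIDE gene known from brown fat, was nearly silent on CD. It had 0, 0.0686, 0 and 0 RPKM in FF CD mice, which is 2 reads in all. FF HFD mice had 0.953, 6.83, 19.4, 1.86 and 11.2 RPKM, from 41 to 591 reads each. All 5 lay above the CD mice, and they differed widely among themselves, with mice 1 and 4 lowest. The group means were 0.0171 RPKM in FF CD, 0.0463 in LKO CD, 1.61 in LKO HFD and 8.05 in FF HFD mice. Cidea thus reached the mean over all mice required for testing through the HFD mice, mainly FF HFD mice. Its place among the genes tested was therefore not independent of its level in the group found higher. The log2 fold change was 2.66 ± 0.61 (SE, adjusted p = 0.0053) on the log2(RPKM + 1) scale, which understates the change of a gene this low. With a pseudocount of 0.1 instead of 1 its log2 fold change was 5.46, above the 4.97 of Cidec. The ratio of reads per depth was 458 with a 95% interval of 126 to 3783, which covers counting error only.

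Cideb, the CIDE gene of hepatocytes that also serves the loading of lipoproteins, was the exception in its family. FF CD mice had 142, 142, 104 and 113 RPKM and FF HFD mice 164, 146, 132, 131 and 138 RPKM. The groups overlapped, and the log2 fold change of 0.19 (95% interval -0.09 to 0.46, adjusted p = 0.339) did not pass.

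Among the perilipins all 4 rose. Plin2, the main droplet coat of hepatocytes, had 136, 189, 75.5 and 121 RPKM in FF CD mice and 459, 470, 453, 431 and 502 RPKM in FF HFD mice. The HFD mice were both higher and closer together, with a coefficient of variation of 5.60% against 35.9% on CD, and the log2 fold change was 1.89 ± 0.28 (SE, adjusted p = 0.00018). Plin4, a perilipin of adipocytes and muscle, had 0.522, 0.454, 0.412 and 0.448 RPKM on CD and 2.65, 11.3, 11.8, 10.0 and 6.06 RPKM on HFD. Its mean rose 18.2-fold, or 2.55 ± 0.34 on the log2 scale (SE, adjusted p = 9.10e-05), and FF HFD mouse 1 was again the lowest of its group.

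Plin5, which tethers droplets to mitochondria, had 7.87, 9.79, 7.23 and 6.09 RPKM in FF CD mice and 13.1, 18.7, 11.03, 20.4 and 13.1 RPKM in FF HFD mice. The groups were separate, and the mean rose 1.97-fold (log2 fold change 0.88 ± 0.16, SE, adjusted p = 0.0012). Plin3, a perilipin that moves between cytosol and droplets, had 14.3, 17.9, 12.3 and 10.7 RPKM on CD and 22.8, 25.0, 18.2, 21.0 and 21.7 RPKM on HFD. The highest CD mouse nearly reached the lowest HFD mouse. The log2 fold change was 0.64 ± 0.20 (SE, adjusted p = 0.0295), and this call was lost without FF CD mouse 3 or 4 or FF HFD mouse 1 or 2 (adjusted p = 0.0508 to 0.0900, with a fold change under 1.5 without FF CD mouse 4), and with no filter on low values, quantile normalization or no moderation of the variance.

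The lipase genes went different ways. Pnpla2, the gene of ATGL, had 16.03, 16.98, 15.03 and 20.4 RPKM in FF CD mice and 21.1, 26.1, 24.2, 26.5 and 24.4 RPKM in FF HFD mice. The groups did not overlap and the adjusted p was 0.0064, yet the log2 fold change of 0.49 ± 0.12 (SE) lay under the threshold of fold. Pnpla3, a lipase-like droplet protein whose expression follows feeding and insulin, had 11.04, 12.9, 2.52 and 2.21 RPKM on CD and 0.763, 0.636, 0.852, 0.884 and 1.90 RPKM on HFD. The CD mice fell into a high and a low pair, and all lay above the HFD mice. Its log2 value fell by 1.75 ± 0.42 (SE, adjusted p = 0.0064), and its mean was 7.10-fold lower on HFD.

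G0s2, the inhibitor of ATGL, rose with the perilipins. It had 38.9, 28.1, 32.03 and 65.3 RPKM in FF CD mice and 156, 148, 119, 125 and 142 RPKM in FF HFD mice, with no overlap. The log2 fold change was 1.79 ± 0.32 (SE, adjusted p = 0.00083). For each of the 9 members without overlap the exact permutation test (two-sided) gave p = 0.0159, the smallest that 4 mice against 5 allow. Any gene without overlap gives this value, so it restates the lack of overlap.

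The same change of diet was then compared in LKO mice, where 2 of the 10 genes passed, G0s2 higher and Pnpla3 lower, against 1.27% of all genes called (0.965% higher and 0.307% lower). G0s2 had 35.9, 41.3, 22.2 and 83.1 RPKM in LKO CD mice and 107, 65.5, 124, 64.3 and 149 RPKM in LKO HFD mice. CD mouse 4 lay above 2 of the HFD mice. The log2 fold change was 1.22 ± 0.32 (SE, adjusted p = 0.0405). Pnpla3 had 7.54, 8.59, 6.22 and 2.30 RPKM in LKO CD mice and 1.40, 1.07, 2.76, 0.382 and 0.756 RPKM in LKO HFD mice. The groups overlapped at HFD mouse 3, and the log2 value fell by 1.63 ± 0.42 (SE, adjusted p = 0.0398). Both calls were close to the threshold: that of G0s2 was lost without any of 6 mice (adjusted p up to 0.137) and that of Pnpla3 without any of 7 (up to 0.118), and both were lost with no filter on low values, with no moderation of the variance and with only the groups compared in the fit.

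The 8 other genes did not pass in LKO mice, and no member was without overlap between the diets, beside 9.04% of all genes. Cidec had 1.01, 5.48, 0.719 and 2.26 RPKM in LKO CD mice and 10.8, 2.64, 5.43, 2.18 and 6.12 RPKM in LKO HFD mice. The groups overlapped, with a log2 fold change of 0.98 (95% interval 0.07 to 1.88, adjusted p = 0.188). Plin4 had 0.412, 2.67, 1.01 and 1.47 RPKM on CD and 5.51, 1.73, 1.58, 1.58 and 2.34 RPKM on HFD, a log2 fold change of 0.55 (95% interval -0.17 to 1.27, adjusted p = 0.359). CD mouse 2 lay above 4 of the 5 HFD mice for Plin4.

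Plin2 had 164, 349, 115 and 285 RPKM in LKO CD mice and 416, 261, 467, 296 and 383 RPKM in LKO HFD mice. The values of CD mice 2 and 4 lay within the HFD range, and the log2 fold change was 0.77 (95% interval 0.19 to 1.36, adjusted p = 0.119). Cidea had 0, 0.122, 0 and 0.0631 RPKM on CD, 6 reads in all, and 7.57, 0.276, 0.0509, 0 and 0.140 RPKM on HFD. LKO HFD mouse 1 alone held 219 of the 233 reads of its group, and without it the log2 fold change went from 0.68 to 0.09. Pnpla2 came nearest among the remaining genes, with a log2 fold change of 0.38 and an adjusted p of 0.0730, and 4 of 5 HFD mice (20.5 to 27.2 RPKM) lay above all CD mice (13.8 to 20.6 RPKM). The log2 fold changes of Plin5, Plin3 and Cideb were 0.33, 0.09 and -0.12 (adjusted p = 0.244, 0.827 and 0.647).

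**Figure D2:**
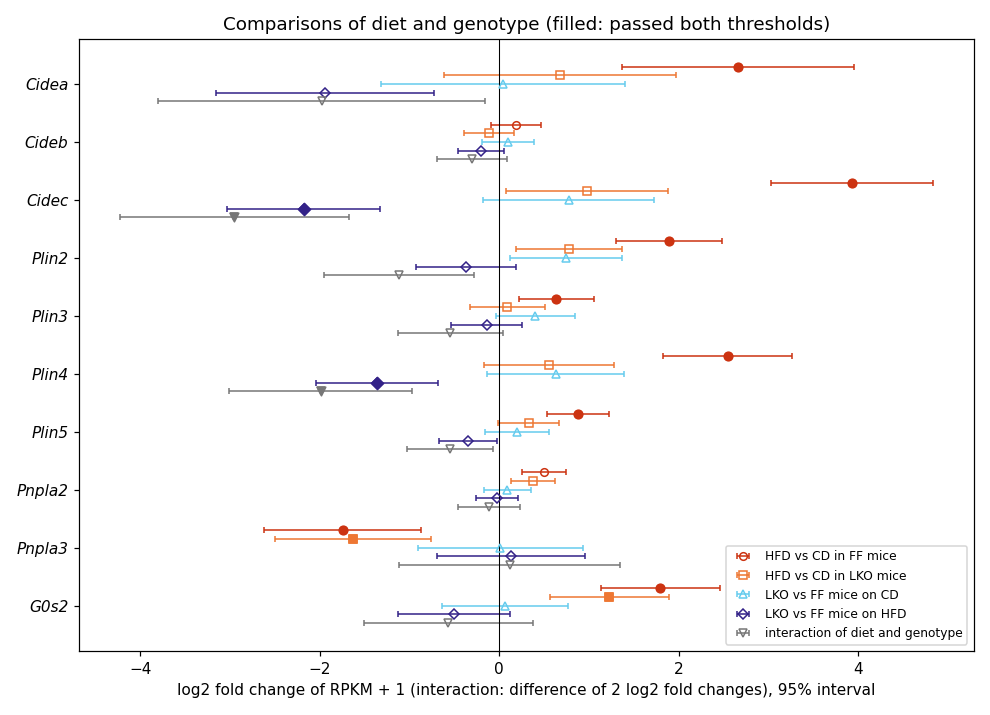
Change of each of the 10 genes (vertical axis) in the 4 pairwise comparisons and in the interaction of diet and genotype, on the log2(RPKM + 1) scale (horizontal axis). Symbols are estimates of the fit of all mice, bars are 95% intervals, and filled symbols passed both thresholds. Filled symbols stand at 8 genes for HFD against CD in FF mice, at Pnpla3 and G0s2 in LKO mice, and at Cidec and Plin4 for LKO against FF mice on HFD and for the interaction.

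Whether the response to HFD differed between genotypes was tested by the interaction of diet and genotype. Cidec and Plin4 passed, both with a smaller response in LKO mice, against 2.44% of all genes called. The interaction was -2.95 ± 0.61 (SE, adjusted p = 0.0114) for Cidec and -1.99 ± 0.48 (SE, adjusted p = 0.0318) for Plin4 on the log2 scale. The call of Cidec held in all alternatives and without each mouse (adjusted p up to 0.0418). That of Plin4 was lost without any of 12 of the 18 mice (adjusted p up to 0.0865), and with no filter on low values or no moderation of the variance.

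For the other 8 genes a difference in response did not pass, and the intervals show what remains possible. It was -1.98 (-3.80 to -0.15, adjusted p = 0.262) for Cidea, -1.12 (-1.95 to -0.29, adjusted p = 0.148) for Plin2 and -0.55 (-1.03 to -0.07, adjusted p = 0.236) for Plin5. Without LKO HFD mouse 1 that of Cidea passed (-2.57, adjusted p = 0.0397), and without LKO CD mouse 3 that of Plin2 did (-1.40, adjusted p = 0.0373). Plin3, G0s2, Cideb and Pnpla2 had estimates of -0.54, -0.57, -0.30 and -0.12 on the log2 scale. Pnpla3 had 0.12, with an interval of -1.12 to 1.35.

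Genotypes were also compared within each diet. On HFD, Cidec and Plin4 were lower in LKO mice and no member was higher, against 2.07% of all genes called (0.902% higher and 1.17% lower). Cidec had a mean of 28.1 ± 14.2 RPKM in FF HFD mice and 5.44 ± 3.45 in LKO HFD mice (SD, n = 5), a 5.17-fold difference, and its log2 value fell by 2.18 ± 0.40 (SE, adjusted p = 0.0050). Plin4 had 8.37 ± 3.91 RPKM and 2.55 ± 1.68 RPKM (SD, n = 5), a 3.29-fold difference, and its log2 value fell by 1.37 ± 0.32 (SE, adjusted p = 0.0235). In both genes the values of LKO HFD mouse 1 overlapped those of FF HFD mouse 1, and the other 4 LKO mice lay below all FF mice. For both the exact permutation test (two-sided) gave p = 0.0159, where 5 mice against 5 allow 0.00794. No member was without overlap on HFD, beside 4.67% of all genes. The Plin4 call was lost without any of 6 mice (adjusted p up to 0.0734), with no filter on low values, with no moderation of the variance and with only the groups compared.

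Cidea averaged 8.05 ± 7.56 RPKM in FF HFD mice and 1.61 ± 3.34 in LKO HFD mice (SD, n = 5). The log2 difference of -1.94 ± 0.58 (SE, adjusted p = 0.0661) did not pass, and it did without LKO HFD mouse 1 (-2.53, adjusted p = 0.0037), without FF HFD mouse 1 (-2.37, adjusted p = 0.0199) or with a pseudocount of 0.1 (-3.64, adjusted p = 0.0372). The remaining 7 genes had log2 differences from -0.50 (G0s2) to 0.13 (Pnpla3). Plin2 averaged 463 ± 25.9 RPKM in FF HFD mice and 365 ± 84.9 RPKM in LKO HFD mice (SD, n = 5), and 4 of the 5 LKO mice lay below all FF mice. Its log2 difference was -0.37 with an interval of -0.93 to 0.18. The levels of Pnpla2 were close, at 24.4 ± 2.15 and 24.0 ± 2.50 RPKM (SD, n = 5), and the interval of the log2 difference was -0.26 to 0.21.

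On CD none of the 10 genes passed between LKO and FF mice (limma), and 0.225% of all genes did. At an unadjusted p under 0.05 in limma there was 1, Plin2, beside 851 of the 11090 genes tested. Its log2 difference was 0.74 (p = 0.0213 and adjusted p = 0.493 in limma, exact permutation p = 0.20). LKO CD mice were unequal. Mice 2 and 4 of that group held its 2 highest values for each of the 7 genes that rose in FF mice (Cidea, Cidec, Plin2, Plin3, Plin4, Plin5 and G0s2), and mouse 3 was the lowest in 5 of them, ties apart. The log2 differences between the genotypes on CD were 0.77 for Cidec, with an interval of -0.18 to 1.72, and 0.63 for Plin4, with an interval of -0.13 to 1.38.

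Taking the 4 groups in order of their mean log2(RPKM + 1), Cidec, Plin2, Plin4, Plin5, Pnpla2, Plin3, Cidea and G0s2 all ran from FF CD through LKO CD and LKO HFD to FF HFD. Neighbours in that order were often no further apart than the larger of their SDs on the log2 scale. This held for each step of Plin3, for FF CD and LKO CD in Cidea, Cidec, Plin5, Pnpla2 and G0s2, for LKO CD and LKO HFD in Cidea and Plin4, and for LKO HFD and FF HFD in Plin5, Pnpla2 and G0s2. Cideb ran from LKO HFD to FF HFD with no step above the SD. Pnpla3 was lowest in FF HFD mice and highest in LKO CD mice, with a step above the SD only between the diets.

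RPKM is scaled by length, so levels of different genes can be set side by side. In FF CD mice Cideb made up 99.4% ± 0.18 of the summed RPKM of the 3 CIDE genes (SD, n = 4), and Cidec 0.578% ± 0.17. In FF HFD mice Cideb made up 80.2% ± 10.0, Cidec 15.5% ± 6.73 and Cidea 4.32% ± 3.83 (SD, n = 5). In LKO HFD mice Cideb was at 95.1% ± 3.66 and Cidec at 3.91% ± 1.83 (SD, n = 5). The Cidec share was 5.74% to 23.9% in FF HFD mice and 2.02% to 6.56% in LKO HFD mice, which overlapped in 1 mouse of each group.

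**Figure D3:**
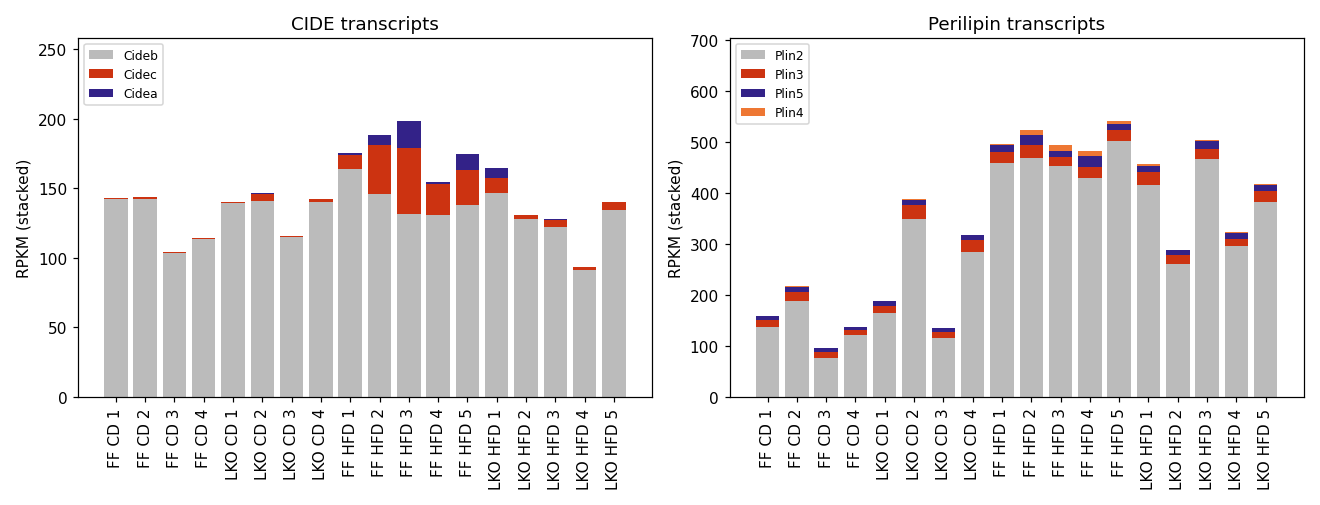
Summed RPKM (vertical axes) of the CIDE genes on the left and of the perilipins on the right, stacked by gene, with a bar for each of the 18 mice (horizontal axes). Cideb and Plin2 form most of every bar, and the Cidec segments are tallest in FF HFD mice 2 to 5 and the Cidea segments in FF HFD mice 3 and 5.

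Plin2 dominated the perilipins in every group, at 84.8% to 91.4% of their summed RPKM on average. That sum was 152 ± 50.5 RPKM in FF CD mice, 258 ± 116 in LKO CD mice (SD, n = 4), 508 ± 24.7 in FF HFD mice and 398 ± 90.4 in LKO HFD mice (SD, n = 5). The share of Plin3 went from 9.47% in FF CD mice to 4.27% in FF HFD mice, although its own level rose. Plin4 held 0.324% in FF CD, 1.65% in FF HFD and 0.632% in LKO HFD mice.

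The ratio of G0s2 to Pnpla2 compares an inhibitor with its lipase at the level of RNA. It was 2.43, 1.65, 2.13 and 3.20 in FF CD mice and 7.41, 5.68, 4.90, 4.71 and 5.81 in FF HFD mice. In LKO CD mice it was 1.92, 2.02, 1.61 and 4.02, and in LKO HFD mice 4.55, 2.78, 4.88, 2.36 and 7.26. The diets were separate in FF mice and overlapped in LKO mice. Pnpla2 exceeded Pnpla3 in all mice, by 1.32- to 9.22-fold in FF CD, 2.22- to 8.98-fold in LKO CD, 12.8- to 41.0-fold in FF HFD and 9.22- to 71.2-fold in LKO HFD mice. The diets did not overlap in either genotype, and mouse 4 was far above the others among LKO CD and among LKO HFD mice.

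**Figure D4:**
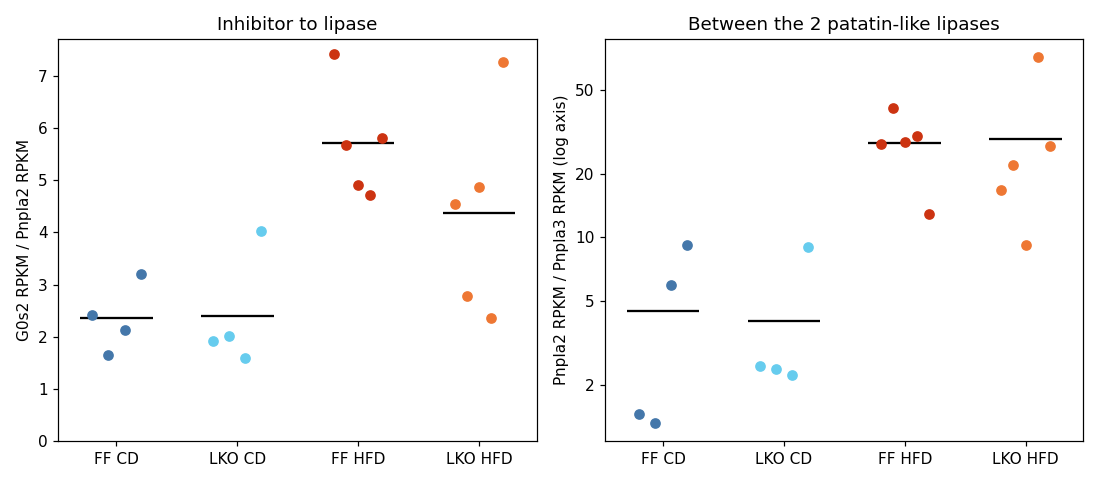
Ratio of G0s2 to Pnpla2 RPKM (left, linear vertical axis) and of Pnpla2 to Pnpla3 RPKM (right, log vertical axis) in each mouse, by group on the horizontal axes. Points are mice and lines are group means. The FF HFD mice lie between 4.71 and 7.41 in the left panel, above the 1.65 to 3.20 of FF CD mice.

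How the genes varied among mice of the same group was described by Pearson's r of their deviations from the group means over the 18 mice. The mice share libraries and depth across genes, so no test is attached. The 45 pairs of members had a median r of 0.33, with 10 above 0.5 and 4 below 0. The closest pairs were Cidec with Plin4 (r = 0.86), Plin2 with Plin3 (0.85), Cideb with Plin3 (0.71) and Cidea with Cidec (0.69). Among all genes tested Plin4 ranked 5 by likeness to Cidec, Plin3 ranked 11 for Plin2 and Cidec 19 for Cidea. Plin3 ranked only 584 for Cideb, and G0s2 803 for Plin2 (r = 0.53), so many other genes were closer. A median r over pairs of all genes was not computed.

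Among all genes tested, the 3 most like Plin4 were Cidec (r = 0.86), Pparg (0.84) and Ermp1 (0.81). Those most like Cidec were Plekha1, Anxa5 and Haus8 (0.91, 0.89 and 0.89), and those most like Cidea were Themis, Anxa2 and Cxcl14 (0.92, 0.83 and 0.81). Plin2 was closest to Tfpi2 (0.91). The most alike genes were for Plin3 Dpp7, Spg7 and Atp6v1f, for Plin5 Mycl, Spryd7 and Zw10, for Pnpla3 Kpnb1, Rpia and Xkr9 and for G0s2 Tnip2, Paqr7 and Sike1, with r between 0.79 and 0.92.

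**Figure D5:**
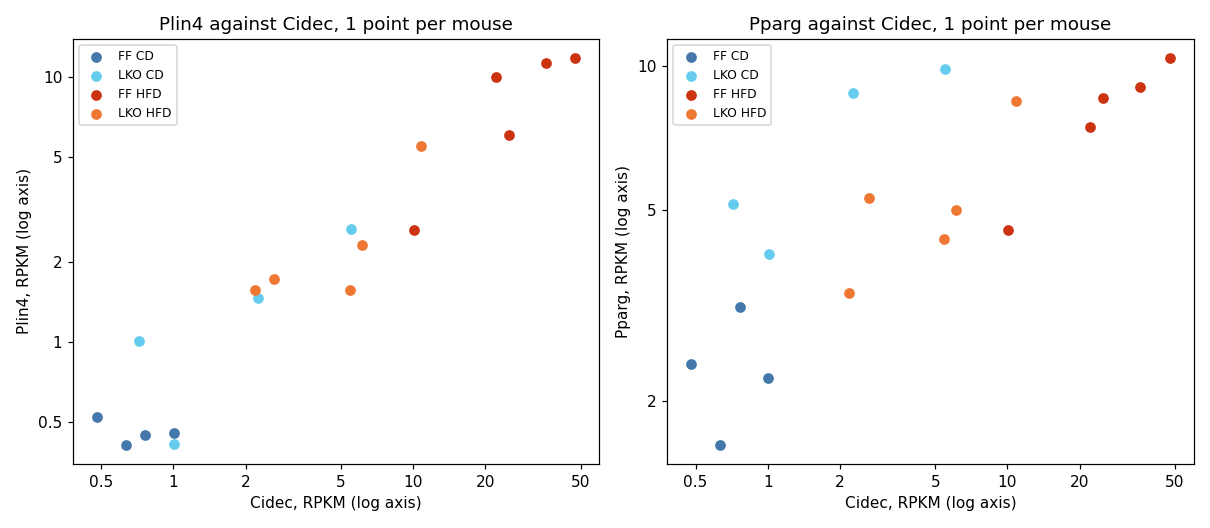
Plin4 (left) and Pparg (right) on the vertical axes against Cidec on the horizontal axes, all in RPKM on log axes, with a point per mouse coloured by group. Plin4 lies along a line with Cidec across the 4 groups, whereas LKO CD mice hold Pparg levels of 4.04 to 9.87 RPKM at Cidec levels of 0.719 to 5.48 RPKM.

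Transcription factors known to act on droplet genes were the next list, with 11 genes tested. In FF mice HFD raised 1 and lowered 2, and in the interaction 1 was higher and 1 lower. Pparg, the nuclear receptor of adipocyte genes, had 2.39, 2.23, 1.62 and 3.14 RPKM in FF CD mice and 4.54, 9.02, 10.4, 7.46 and 8.58 RPKM in FF HFD mice, and rose (log2 fold change 1.41 ± 0.25, SE, adjusted p = 0.00083). In LKO CD mice it was at 4.04, 9.87, 5.14 and 8.79 RPKM and in LKO HFD mice at 8.46, 5.30, 4.36, 3.35 and 4.997 RPKM. On CD the LKO mice were thus all above the FF mice (log2 difference 1.199 ± 0.26, SE, adjusted p = 0.0748, not passed), and 5.07% of all genes had no overlap in that comparison, higher or lower. The interaction of Pparg was -1.72 ± 0.35 (SE, adjusted p = 0.0108). Mlxipl (ChREBP), a sensor of carbohydrate, and Srebf1, a regulator of lipid synthesis, fell on HFD in FF mice by 0.67 and 0.94 on the log2 scale (adjusted p = 0.0037 and 0.0369), and the interaction of Mlxipl was 0.81 (adjusted p = 0.0373). The call of Srebf1 was lost without any of 7 mice (adjusted p up to 0.120) and under 2 of 8 other settings of the processing. That of the Mlxipl interaction was lost without any of 12 mice (up to 0.101) and under 4 of 7 other settings. Mlxipl no longer passed in FF mice with each mouse rescaled to the same sum. Of the 34 calls of genes in these further lists and in the marker lists below, 12 held under every alternative and without each mouse, and these were the calls of Pparg and Mogat1 in each comparison where they passed and of Fitm2, Hsd17b13, Ces1g, Lipa, Lipe, Fabp4 and Col1a1 on HFD in FF mice.

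Of the 12 genes of triglyceride synthesis and droplet formation, 3 rose and 1 fell on HFD in FF mice, with a median log2 fold change of 0.22 beside 0.07 for all genes. Mogat1, an acyltransferase that makes diacylglycerol, had 0.0708 to 0.588 RPKM in FF CD mice and 4.31 to 5.89 RPKM in FF HFD mice (log2 fold change 2.22 ± 0.24, SE, adjusted p = 8.61e-06). LKO HFD mice had 3.30, 0.700, 0.712, 0.295 and 1.12 RPKM, all below the FF HFD mice, with a log2 difference of -1.61 (adjusted p = 0.00047) and an interaction of -1.93 (adjusted p = 0.0037). LKO HFD mouse 1 was again nearest to the FF mice. Fitm1 and Fitm2, which aid the budding of droplets, rose in FF mice by 1.14 and 1.04 on the log2 scale. Fitm2 is named although outside the rule for naming genes, after its values were seen, because it also rose in LKO mice (0.71, adjusted p = 0.0277). Lpin1, a phosphatidate phosphatase, fell in both genotypes by 0.88 and 1.24 (adjusted p = 0.0377 and 0.0285), and Gpam, which starts glycerolipid synthesis, fell in LKO mice by 1.06 (adjusted p = 0.0304). The call of Fitm1 was lost without FF CD mouse 3 (adjusted p = 0.0504). In LKO mice that of Fitm2 was lost without any of 5 mice (adjusted p up to 0.0944) and that of Gpam without any of 6 (up to 0.0792). Both were also lost under 3 of 8 other settings. The call of Lpin1 was lost without any of 7 mice in FF mice (adjusted p up to 0.0915) and of 4 in LKO mice (up to 0.101). Under the other settings it was lost in 4 of 8 in FF mice and in 2 of 8 in LKO mice.

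Of 8 other droplet proteins, 7 were tested and 1, Hsd17b13, rose on HFD in FF mice. It had 135 to 147 RPKM in FF CD, 174 to 258 in LKO CD, 203 to 310 in FF HFD and 210 to 238 RPKM in LKO HFD mice. Hsd17b13 and its relative Hsd17b11 both passed in the interaction, at -0.78 (adjusted p = 0.0228) and -0.60 (adjusted p = 0.0355). Of 12 other lipases and cofactors, 11 were tested and 3 rose on HFD in FF mice, Ces1g (0.999), Lipa (0.78) and Lipe (0.71 on the log2 scale). These encode a carboxylesterase, the lysosomal lipase and hormone-sensitive lipase. Lipe also rose in LKO mice (0.65, adjusted p = 0.0181), and Ces1g passed in the interaction (-1.19, adjusted p = 0.0312). Without single mice the call of Lipe in LKO mice was lost in 3 cases (adjusted p up to 0.0699). In the interaction those of Ces1g and Hsd17b11 were lost in 9 cases each (up to 0.0843 and 0.0948), and that of Hsd17b13 without LKO CD mouse 2 or 4 (up to 0.0623). Other settings also lost these calls of Lipe (1 of 8), Ces1g (2 of 7), Hsd17b11 (1 of 7) and Hsd17b13 (1 of 7). None of the 5 genes that pass triglyceride to VLDL was called in any comparison: Apoc3 and Apob, the 2 most abundant, had log2 fold changes of 0.11 and 0.11 on HFD in FF mice.

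Markers of other cells that may hold droplet genes were measured beside these results. Of 8 adipocyte markers, Adipoq, Lep, Plin1 and Ucp1 were at 0 in every CD mouse, and the summed level was 2.98 to 5.89 RPKM in FF CD, 2.67 to 5.71 in LKO CD, 12.0 to 28.6 in FF HFD and 5.15 to 18.4 RPKM in LKO HFD mice. Most of that sum was Fabp4, which macrophages express too and which rose on HFD in FF mice (log2 fold change 1.97, adjusted p = 0.00013) and was lower in LKO than in FF mice on HFD (-0.96, adjusted p = 0.0494). The latter call was lost without any of 16 of the 18 mice (adjusted p up to 0.128) and under 5 of 8 other settings. FF HFD mouse 4 held the highest Adipoq, at 0.760 RPKM against 0 to 0.0320 in all other mice. Without it the same number of members, 8, passed on HFD in FF mice, and Cidec had log2 values of 3.97 for the diet in FF mice and -2.22 between genotypes on HFD, both passing. Plin4 no longer passed between genotypes on HFD (-1.27, adjusted p = 0.0616). That call of Plin4 was also lost without FF HFD mouse 2 or 3 or LKO HFD mouse 2, 3 or 4.

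The 8 Kupffer cell and macrophage markers summed to 46.9 to 66.7 RPKM in FF CD, 40.9 to 65.2 in LKO CD, 56.7 to 115 in FF HFD and 56.5 to 110 RPKM in LKO HFD mice. On HFD in FF mice 3 of the 8 passed as higher, Csf1r, Vsig4 and Adgre1 (log2 fold changes 0.77, 0.72 and 0.62), and in LKO mice Clec4f did (0.80). Of all genes, 5.11% and 0.965% were called higher. The median log2 fold change of the 8 was 0.61 in FF and 0.52 in LKO mice, and none passed in the interaction. In LKO mice Csf1r also went from a mean of 4.48 to 7.38 RPKM, and in FF mice Clec4f from 16.3 to 23.9. The call of Csf1r was lost without FF CD mouse 3 (adjusted p = 0.0526), and those of Vsig4, Adgre1 and Clec4f without any of 6, 5 and 4 mice (adjusted p up to 0.132, 0.0840 and 0.102). Those of Vsig4, Adgre1 and Clec4f were each also lost under 3 of 8 other settings. The sums of the 8 markers overlapped almost wholly between the genotypes on HFD. The 8 stellate cell markers summed to 95.7 to 145 RPKM in FF CD, 107 to 149 in LKO CD, 123 to 168 in FF HFD and 89.0 to 178 RPKM in LKO HFD mice, and among them Col1a1, a collagen gene, rose on HFD in FF mice (1.16, adjusted p = 0.0054) and was lower in LKO than in FF mice on HFD (-1.15, adjusted p = 0.0157). Of the 7 hepatocyte markers Apoa1 alone was called, and it went the other way in both comparisons (-0.72 and 0.64, adjusted p = 0.0028 and 0.0169). The median log2 values of the 7 markers were -0.08 and -0.03, beside 0.07 and 0.03 for all genes. Between genotypes on HFD the call of Col1a1 was lost without FF HFD mouse 2 (adjusted p = 0.0510) and that of Apoa1 without FF HFD mouse 2 or LKO HFD mouse 2 (up to 0.0523) and under 3 of 8 other settings, and with quantile normalization Apoa1 no longer passed in FF mice. The part of these cells in the values of the droplet genes was not tested.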

How the data were processed

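Liver RNA of 18 mice was analysed. The authors aligned reads with HISAT2 2.0.4 to mm10, used Partek, and deposited an RPKM value for each gene and mouse. Gene annotation, strand setting and the treatment of reads matching several genes are not given in the sources used here, and the labels name a small RNA library kit beside a standard RNA-seq protocol. Groups came from the titles of the samples. Numbered samples of a group were taken as separate mice.

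Values were analysed as log2(RPKM + 1) in a single fit of the 4 groups with limma 3.58.1 (R 4.3.3), for the 11090 genes with a mean of at least 0.5 RPKM. A gene passed at an adjusted p under 0.05 (Benjamini-Hochberg) and a fold change above 1.5. The 10 members were also compared by exact permutation tests in scipy 1.17.1. The deposited tables hold no counts, so reads were recovered from the steps between low values. The members, the gene lists and the alternatives were chosen with earlier results of these data known. Beside the members and Ppp6r3, up to 4 genes per list were named, those called with the largest change, or the 2 most abundant where none was called, and the 3 genes most like each called member. A gene that this rule picked is not reported. Promoter windows came from RefSeq (GRCm38.p6), for 9 of the 10 members. The fit was tested on simulated data. Results were recomputed without the filter, with a filter at a mean of 1 RPKM, with 0.1 as pseudocount, after quantile normalization or rescaling, without moderation, within the compared groups alone, by adjusted p alone, with a replicate block, and with each mouse left out in turn.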

Additional observations from a re-analysis of the deposited data

Results flagged for a closer look

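Single mice far from the rest of their group, by Dixon's criterion on log2(RPKM + 1), were found in 5 of 40 combinations of gene and group, where chance gives about 1 in 20. Cidea was at 7.57 RPKM and Plin4 at 5.51 RPKM in LKO HFD mouse 1, with 0 to 0.276 and 1.58 to 2.34 RPKM in the other 4 mice. Cidea was at 0.0686 RPKM in FF CD mouse 2, which is 2 reads beside 0 in the others. Where all the others are at 0 any value above 0 is flagged, so the rate by chance does not apply to this flag. Cideb was at 115 RPKM in LKO CD mouse 3, below the 139 to 141 RPKM of its group. Pnpla3 was at 1.90 RPKM in FF HFD mouse 5, with 0.636 to 0.884 RPKM in the others.

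The responses to HFD of the genotypes differed by a test of the interaction for 2 members, Cidec (-2.95 on the log2 scale, adjusted p = 0.0114) and Plin4 (-1.99, adjusted p = 0.0318, both limma).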

How the results depend on the processing

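For the 10 genes 50 values were recomputed under up to 8 other settings and without each of the 18 mice. Of 390 values under the other settings 373 kept their direction and their side of the thresholds, and of 900 without each mouse 844 did. Values that had not passed and still did not are among those kept. The count of members passing on HFD in FF mice was 7 to 9 under the other settings (7 or 8 without each mouse), and that on CD between genotypes at 0. The count on HFD in LKO mice went from 2 to 0 with no filter, no moderation of the variance and only the groups compared (0 to 2 without each mouse). Between genotypes on HFD it went from 2 to 1 under the same 3 settings (1 to 3 without each mouse). In the interaction it went from 2 to 1 with no filter, no moderation and the replicate block (1 to 3 without each mouse). The causes were not tested.

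Over all genes, 732 passed on HFD in FF mice, 1254 with a pseudocount of 0.1 and 2287 by adjusted p alone (605 to 801 without each mouse). On HFD in LKO mice 141 passed, 272 with a pseudocount of 0.1, 47 with no filter, 87 with quantile normalization, 53 with no moderation, 40 with only the groups compared and 449 by adjusted p alone (17 to 237). Between genotypes on CD 25 passed, 12 with no filter and 6 with no moderation (11 to 45). Between genotypes on HFD 230 passed, 152 with no filter, 145 with no moderation and 466 by adjusted p alone (129 to 318). In the interaction 271 passed, 169 with no filter, 411 with each mouse rescaled to the same sum and 167 with no moderation (155 to 393).

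The sign turned in values that had not passed. The difference of G0s2 between genotypes on CD was -0.0026 with quantile normalization and -0.273 to 0.347 without each mouse. The ranges without each mouse were -0.333 to 0.370 for Pnpla3 between genotypes on CD, -0.0745 to 0.286 for Pnpla3 between genotypes on HFD, -0.242 to 0.460 for Pnpla3 in the interaction, -0.0863 to 0.271 for Plin3 on HFD in LKO mice and -0.0760 to 0.0272 for Pnpla2 between genotypes on HFD.

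Mice of the same number in different groups had deviations with r between -0.17 and 0.33 (median 0.05, 25 pairs). Mice of different numbers had r between -0.35 and 0.39 (median -0.01, 96 pairs). No pairing by number was seen, and a weaker one was not tested. With the replicate block the interaction of Plin4 no longer passed (-1.99, adjusted p = 0.0558), and no other call among the 10 genes changed. Calls that the text gives and that were lost without single mice are named beside each result. Cidea rested on 2 reads in FF CD and 6 reads in LKO CD mice, and 3 reads in a mouse correspond to 0.0698 to 0.110 RPKM, and the ratio of reads per depth in LKO to FF mice on CD was 2.96 with a 95% interval of 0.530 to 30.0 (counting error only), so a difference within these bounds was not detectable.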
